A study of Mus musculus with 10 samples.

Results

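The PPAR, ERR and PGC1 regulator families were taken as 10 genes of 55401 in the expression table. They were picked by gene symbol, with earlier results of these data known. They were the receptors Ppara, Ppard and Pparg, their partners Rxra and Rxrg, the coactivators Ppargc1a, Ppargc1b and Pprc1, and the orphan receptors Esrra and Esrrg. RNA-seq had been performed on limb muscle of ICR mouse foetuses at embryonic day 18.5, with 5 GDM and 5 CTR libraries. GDM dams had been injected with streptozotocin, which destroys insulin-producing cells, at gestational days 6.5 and 12.5, and CTR dams had received buffer. The labels gave every animal as wild type and the material as a mixture of cells, and the methods gave the foetuses as male. Neither sex nor litter stood in the labels, so that each p rests on the spread over samples, which may share a dam. As a model, streptozotocin gives dams that lack insulin, and a whole limb muscle holds vessels, connective tissue and fat beside muscle fibres.

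PPARs are nuclear receptors that bind fatty acids and their derivatives, pair with a retinoid X receptor (RXR) on DNA and switch on genes of fatty acid uptake, storage and oxidation. ERRs are orphan receptors, with no known natural hormone, that drive genes of the citrate cycle and the respiratory chain. Both depend on coactivators of the PGC1 family, which bind no DNA themselves and are known in muscle for raising mitochondrial biogenesis. The comparison asked which of these regulators differed between GDM and CTR foetal muscle, and whether any moved with Cpt1b and Cd36, genes of fatty acid import into mitochondria and into the cell.

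Levels were given as FPKM, fragments scaled to transcript length and library size, on which genes could be set side by side. The estimated depth was 18.0 to 21.26 M fragments in GDM libraries and 14.83 to 17.03 M in CTR libraries. At this depth 1 FPKM stood for about 14.83 to 21.26 fragments per kilobase of transcript. The members below 3 FPKM thus rested on fewer fragments per kilobase than the others. Mitochondrially encoded genes took 9.43 to 12.3% of the summed FPKM in GDM libraries and 16.3 to 19.0% in CTR libraries. The median log2 fold change of the 13363 tested genes was 0.15, and 0.006 after each library was scaled by its median ratio. Muscle fibre genes (8 markers, of which Acta1 averaged 8710 FPKM in GDM and 13700 FPKM in CTR libraries) were abundant in every library, with a summed level of 15100 to 21000 FPKM in GDM and 25800 to 30900 FPKM in CTR libraries. Of these markers 5 were lower, 1 was higher and 2 did not pass. The higher marker was Myh3, which averaged 947 FPKM in GDM and 320 FPKM in CTR libraries. In a bulk sample, fewer cells of a type and less RNA per cell cannot be told apart.

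Promoters were read to show which known response elements lie beside these genes, since CREB acting on Ppargc1a was at issue in the study. RefSeq windows of the 250 bases before an annotated start (GRCm38.p6) were found for 9 of the 10 members, 16 windows in all. Both strands were searched for the cAMP response element TGACGTCA and its half-site TGACG, the ERR element TCAAGGTCA and the shorter AAGGTCA and AGGTCA that it contains, the direct repeat of AGGTCA with 1 base between its copies, the GABPA core CCGGAAGT, the NRF1 palindrome of GCGCA followed by its reverse complement, and the E box CACGTG. Sequences run 5′ to 3′ along the strand of the gene, and capitals mark each match in the 4 windows shown, which belong to the coactivator at issue and to 3 of the members that passed the test.
Ppargc1a, chr5:51567726-51567975, minus strand: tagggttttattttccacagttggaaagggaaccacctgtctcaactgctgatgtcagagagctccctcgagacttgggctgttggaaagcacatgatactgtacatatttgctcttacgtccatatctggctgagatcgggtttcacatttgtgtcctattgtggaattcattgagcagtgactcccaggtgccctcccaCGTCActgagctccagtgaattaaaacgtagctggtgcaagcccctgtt
Pprc1, chr19:46056289-46056538, plus strand: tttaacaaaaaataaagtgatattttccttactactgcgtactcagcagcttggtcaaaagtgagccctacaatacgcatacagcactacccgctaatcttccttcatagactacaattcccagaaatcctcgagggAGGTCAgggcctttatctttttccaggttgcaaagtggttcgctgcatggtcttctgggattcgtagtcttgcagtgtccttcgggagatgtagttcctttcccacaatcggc
Ppara, chr15:85735526-85735775, plus strand: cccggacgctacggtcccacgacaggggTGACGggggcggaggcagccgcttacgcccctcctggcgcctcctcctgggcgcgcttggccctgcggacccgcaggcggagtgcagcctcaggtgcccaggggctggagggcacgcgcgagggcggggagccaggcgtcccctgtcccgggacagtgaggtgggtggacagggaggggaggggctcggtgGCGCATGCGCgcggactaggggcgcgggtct
Esrra, chr19:6921809-6922058, minus strand: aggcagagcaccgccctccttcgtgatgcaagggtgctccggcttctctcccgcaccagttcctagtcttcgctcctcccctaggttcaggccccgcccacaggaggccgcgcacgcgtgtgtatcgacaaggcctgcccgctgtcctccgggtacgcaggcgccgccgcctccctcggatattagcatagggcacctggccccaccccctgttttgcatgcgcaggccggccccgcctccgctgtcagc
The Ppargc1a window held the half-site in reverse complement (CGTCA as printed) at bases -49 to -45 from the start and no full TGACGTCA. Ppargc1a has 5 annotated transcripts and only this window was searched, so a full element elsewhere could not be seen. The study reported less phosphorylated CREB at a cAMP response element of Ppargc1a in GDM foetal muscle. The half-site occurred in 17.8% of 32851 promoters and the full element in 1.55%. The Pprc1 window held AGGTCA at -113 to -108, a motif present in 14% of promoters. The Ppara window held TGACG at -222 to -218 and the NRF1 site at -31 to -22, which was found in 0.782% of promoters. In the Esrra window none of these letters occurred, which says nothing of ERR or PGC1 acting elsewhere. AGGTCA also stood in both Pparg windows at -28 and -9, and within AAGGTCA in one window each of Rxrg, at -88, and Rxra, at -48, with a further AGGTCA in reverse complement at -87 in the same Rxra window. The longer elements were rarer over all promoters, at 0.387% for TCAAGGTCA, 4.08% for AAGGTCA, 0.0335% for the direct repeat, 2.88% for CCGGAAGT and 6.02% for CACGTG. A match is a run of letters and not evidence of binding.

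Of the 10 members 9 reached 1 FPKM in at least 5 libraries and were tested with limma on log2(FPKM + 1), with adjustment over 13363 genes. Pprc1 and Ppara were higher in the GDM group (2 of 9, against 35.1% of all tested genes), Esrra and Pparg were lower (2 of 9, against 10.9%), and 5 did not pass (46.0% of all tested genes passed in either direction). Ppara passed the filter only through the GDM group, where it is high, so its call adds nothing to the count of higher members, and without it the count is 1. The median log2 fold change of the 9 was -0.08. Groups did not overlap in 3 of the 10 members. Pprc1 was the one that was higher, where 27.2% of all tested genes were, and Esrra and Pparg were lower, where 7.43% of all tested genes were. With median ratio scaling the higher call of Ppara was lost and Rxrg was also lower, which left 1 member higher (19.7% of all tested genes) and 3 lower (18.9%). Without CTR replicate 2, which stood apart in fat cell genes, 2 members were higher and 2 lower, as with all libraries.

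**Figure D1:**
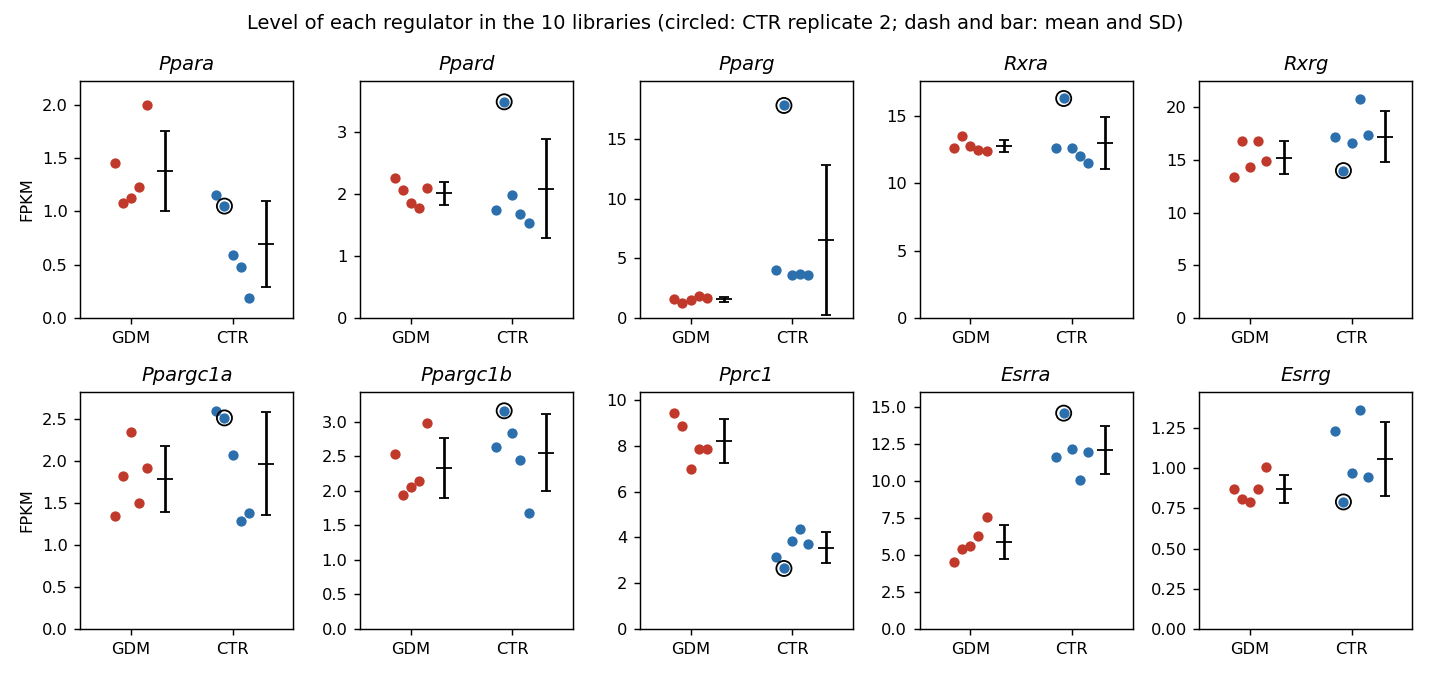
FPKM of each of the 10 regulators (vertical axis, from 0, with a separate scale for each gene) in the 5 GDM libraries, left, and the 5 CTR libraries, right. Points are libraries, the dash and bar give the mean and SD, and a ring marks CTR replicate 2. Pprc1 lay between 6.98 and 9.41 FPKM in GDM and between 2.64 and 4.38 FPKM in CTR libraries, Esrra lay apart in the other direction, and Ppargc1a overlapped throughout.

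Among the coactivators, Pprc1 rose and the other family members did not pass the test. Pprc1 encodes the PGC1-related coactivator, which is induced by growth signals and known for acting with NRF1 on mitochondrial genes (chr19:46044886-46072915, plus strand, GRCm38). Its level was 9.41, 8.88, 6.98, 7.85 and 7.84 FPKM in GDM libraries and 3.13, 2.64, 3.85, 4.38 and 3.70 FPKM in CTR libraries. Every GDM library was above every CTR library, with means of 8.19 ± 0.958 and 3.54 ± 0.676 FPKM (SD, n = 5 each), a ratio of 2.31. The log2 fold change of Pprc1 was 1.02 (SE 0.11, limma adjusted p = 7.4e-05), and 0.87 after scaling (adjusted p = 0.00022). Its 5′ end overlaps Ldb1 on the opposite strand, which averaged 32.9 FPKM in GDM and 27.9 FPKM in CTR libraries, and whether strand was used in counting was not stated.

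Ppargc1a encodes PGC1A, the coactivator most closely tied to mitochondrial biogenesis in muscle (chr5:51454250-51567726, minus strand). It was at 1.34, 1.82, 2.34, 1.5 and 1.92 FPKM in GDM libraries and at 2.59, 2.51, 2.07, 1.28 and 1.38 FPKM in CTR libraries. The groups overlapped over almost their whole range, and both the lowest and the highest library belonged to the CTR group. Means were 1.78 ± 0.39 and 1.97 ± 0.612 FPKM in GDM and CTR muscle (SD, n = 5 each), and the log2 fold change was -0.078 with a 95% interval of -0.41 to 0.26 (limma adjusted p = 0.71). After scaling it was -0.19 (adjusted p = 0.35). A fall of 0.41 on this log2 scale therefore lay at the edge of what these 10 libraries allowed, and equality was not shown. At so low a level the same step stands for a larger fall in FPKM, as 1 was added before the log. The study reported lower Ppargc1a mRNA by RT-qPCR, and lower PGC1A protein, in GDM foetal muscle.

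Ppargc1b encodes PGC1B, a close relative with overlapping mitochondrial targets (chr18:61298136-61400431, minus strand). Its level was 2.53, 1.94, 2.06, 2.14 and 2.99 FPKM in GDM libraries and 2.64, 3.16, 2.84, 2.45 and 1.68 FPKM in CTR libraries. As for Ppargc1a the extremes were both CTR libraries, and the log2 fold change was -0.085 with an interval of -0.37 to 0.20 (limma adjusted p = 0.61). A small RNA gene inside it on the opposite strand, Gm25301, averaged 2.51 FPKM in GDM libraries and 4.89 FPKM in CTR libraries.

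**Figure D2:**
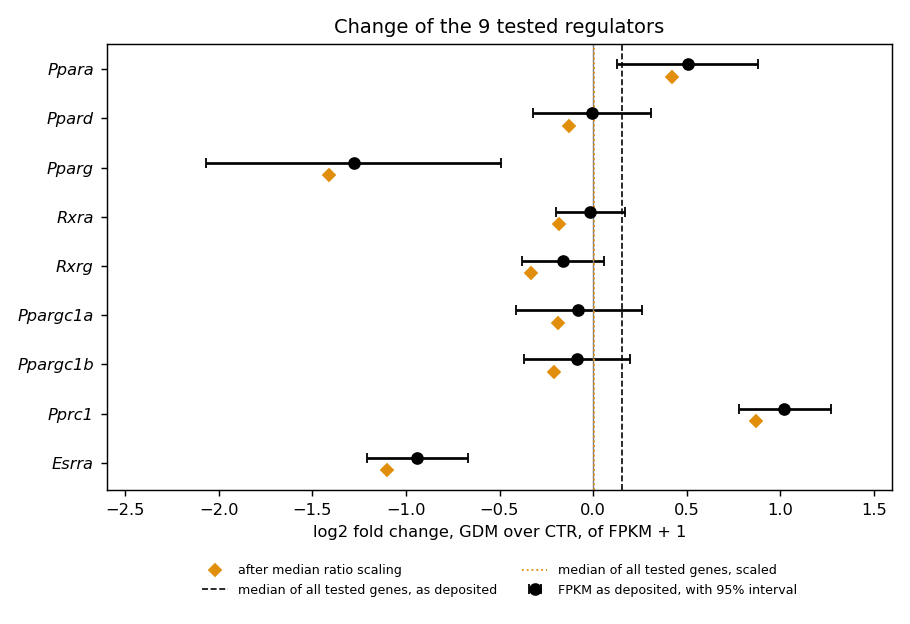
Log2 fold change of FPKM + 1, GDM over CTR (horizontal axis), for the 9 tested regulators. Black points and bars give the value as deposited with its 95% interval, orange diamonds the value after median ratio scaling, and vertical lines the median of all 13363 tested genes under each. The intervals of Pprc1 (0.78 to 1.27), Esrra (-1.21 to -0.67), Pparg (-2.07 to -0.49) and Ppara (0.13 to 0.88) lay off 0.

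Esrra fell. It encodes ERRA, the main receptor through which PGC1 coactivators act on respiratory genes (chr19:6910977-6921813, minus strand). Its level was 4.50, 5.42, 5.62, 6.26 and 7.59 FPKM in GDM libraries and 11.6, 14.6, 12.2, 10.1 and 12 FPKM in CTR libraries. The groups lay apart, with means of 5.88 ± 1.15 and 12.1 ± 1.6 FPKM in GDM and CTR muscle (SD, n = 5 each), a ratio of 0.486. The log2 fold change of Esrra was -0.94 (SE 0.12, limma adjusted p = 0.00019), and -1.10 after scaling (adjusted p = 0.00016). The muscle fibre sum given above was lower in the same libraries, and its part in the result was not tested. Trmt112, on the opposite strand across the 3′ end of Esrra, averaged 15.4 FPKM in GDM and 12.5 FPKM in CTR libraries.

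Esrrg, a receptor known from oxidative muscle and heart, stayed below the filter and was described without a place among the tested genes (chr1:187608791-188214885, plus strand). It was at 0.873, 0.811, 0.792, 0.868 and 1.01 FPKM in GDM libraries and at 1.23, 0.79, 0.968, 1.36 and 0.945 FPKM in CTR libraries. The groups overlapped, and in the fit without a filter the log2 fold change was -0.13 (limma adjusted p = 0.56). The third receptor of the family, Esrrb, was similarly low, with 0.851 ± 0.2 FPKM in GDM libraries and 0.666 ± 0.129 FPKM in CTR libraries (SD, n = 5 each), and was also below the filter.

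The 3 PPAR genes did not move alike. Pparg, the receptor that drives fat cell formation (chr6:115360951-115490399, plus strand), was at 1.62, 1.24, 1.53, 1.83 and 1.67 FPKM in GDM libraries and at 4.04, 17.8, 3.63, 3.67 and 3.64 FPKM in CTR libraries. All GDM libraries were below all CTR libraries, and CTR replicate 2 was far above the other 4. The log2 fold change of Pparg was -1.28 (SE 0.36, limma adjusted p = 0.014), and without CTR replicate 2 it was -0.88 (SE 0.08, adjusted p = 6.6e-05), with a mean of 1.58 FPKM in GDM libraries against 3.75 FPKM in the 4 other CTR libraries. In the fit of all 55401 genes without a filter the call was lost (adjusted p = 0.10).

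Fat cell markers moved with Pparg. Of the 10 markers 9 were tested, of which 8 were lower and 1 did not pass, and their summed FPKM was 63.5 to 80.7 in GDM libraries and 349 to 2060 in CTR libraries. The sum of 2060 belonged to CTR replicate 2, and the other 4 CTR libraries lay between 349 and 514. Cidec, Plin1 and Adig stayed below 1 FPKM in every GDM library, and Retn reached it in 1, so these 4 passed the filter through the CTR group and their lower calls were partly fixed by it. No marker was at the floor in every library, but the lipid droplet genes Cidec and Plin1 averaged 0.266 and 0.198 FPKM in GDM libraries, against 48.3 and 14.6 FPKM in CTR libraries. The part of these cells in the result for Pparg was not tested.

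Ppara encodes the fatty acid sensor known for switching on oxidation (chr15:85734983-85802819, plus strand). It was at 1.45, 1.08, 1.13, 1.23 and 2.0 FPKM in GDM libraries and at 1.15, 1.05, 0.596, 0.48 and 0.192 FPKM in CTR libraries. Most GDM libraries were above most CTR libraries, the groups overlapped, and only 2 CTR libraries reached 1 FPKM. The log2 fold change of Ppara was 0.51 (SE 0.17, limma adjusted p = 0.031). After scaling it was 0.42 (adjusted p = 0.077), and the call was also lost when GDM replicate 1 or 5 or CTR replicate 3, 4 or 5 was left out, with adjusted p of 0.057 to 0.07 and log2 fold changes of 0.39 to 0.50.

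Ppard, the most widely expressed PPAR and the one best known in muscle (chr17:28232700-28301474, plus strand), was at 2.26, 2.06, 1.86, 1.78 and 2.10 FPKM in GDM libraries and at 1.75, 3.49, 1.99, 1.68 and 1.53 FPKM in CTR libraries. Without the 1 high CTR library the CTR values stopped at 1.99 FPKM. The log2 fold change of Ppard was -0.0049 with an interval of -0.32 to 0.31 (limma adjusted p = 0.98), and 0.14 without CTR replicate 2 (adjusted p = 0.17).

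The RXR genes, whose products pair with PPARs and with many other receptors, were the most abundant members in both groups. Rxra (chr2:27676440-27762957, plus strand) was at 12.6, 13.5, 12.8, 12.5 and 12.4 FPKM in GDM libraries and at 12.6, 16.3, 12.6, 12 and 11.5 FPKM in CTR libraries. It was the steadiest member in GDM muscle, with an SD of 3.52% of its mean, and its log2 fold change was -0.014 with an interval of -0.20 to 0.17 (limma adjusted p = 0.91). Leaving out CTR replicate 2 turned it to 0.06 (adjusted p = 0.34).

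Rxrg, the form enriched in skeletal muscle and brain (chr1:167598384-167639623, plus strand), was at 13.4, 16.8, 14.3, 16.8 and 14.9 FPKM in GDM libraries and at 17.2, 14, 16.6, 20.8 and 17.4 FPKM in CTR libraries. GDM values were mostly the lower ones and the groups overlapped, with a log2 fold change of -0.16 (SE 0.10, limma adjusted p = 0.22). With median ratio scaling Rxrg passed as lower (-0.33, adjusted p = 0.027). Rxrb, the third RXR gene, averaged 7.99 ± 0.845 FPKM in GDM and 7.34 ± 0.492 FPKM in CTR libraries (SD, n = 5 each), with a log2 fold change of 0.11 (limma adjusted p = 0.26) that turned to -0.05 after scaling.

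By mean FPKM the order in GDM muscle was Rxrg, Rxra, Pprc1, Esrra, Ppargc1b, Ppard, Ppargc1a, Pparg, Ppara and Esrrg. Neighbours in this order had overlapping ranges, except that Rxra lay above Pprc1, Esrra above Ppargc1b and Ppara above Esrrg in every library. In CTR muscle the order was Rxrg, Rxra, Esrra, Pparg, Pprc1, Ppargc1b, Ppard, Ppargc1a, Esrrg and Ppara, and all neighbours overlapped. This rested in part on CTR replicate 2. Without it the CTR mean was 3.75 FPKM for Pparg and 3.77 FPKM for Pprc1. Esrra (10.1 to 12.2 FPKM) then lay above Pparg (3.63 to 4.04 FPKM), and Rxrg (16.6 to 20.8 FPKM) above Rxra (11.5 to 12.6 FPKM). By mean, Pprc1 stood above Esrra in the GDM group and below it in the CTR group.

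The make-up of each family was compared by the log2 ratio of 2 members within a library, which does not depend on scaling between libraries. The 8 pairs within families were put to an exact permutation test, taken two-sided and adjusted over the 8. Of these 6 differed (the smallest p that 5 against 5 libraries allow is 0.0079). Each of the 6 held Pprc1, Esrra, Pparg or Ppara, the members that passed singly, so their count is not separate from those calls. Of all tested genes 46.0% passed in either direction, and the share of differing pairs over all genes was not computed. Esrra over Esrrg was lower by 0.79 in GDM libraries, with a mean log2 ratio of 2.74 in GDM and 3.53 in CTR muscle (exact permutation p = 0.016, adjusted p = 0.025). The log2 ratio of Ppargc1b over Pprc1 averaged -1.82 in GDM and -0.48 in CTR libraries (exact permutation p = 0.0079, adjusted p = 0.021). For Ppargc1a over Pprc1 the means were -2.22 in GDM and -0.89 in CTR libraries (exact permutation p = 0.016, adjusted p = 0.025), a difference of -1.33. Without GDM replicate 1, 4 or 5 the adjusted p was 0.051 to 0.053, while the difference was -1.18, -1.29 and -1.38.

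The PPAR ratios also shifted. Ppara over Pparg averaged -0.22 in GDM and -3.14 in CTR libraries on the log2 scale, and Ppard over Pparg averaged 0.35 in GDM and -1.36 in CTR libraries (exact permutation p = 0.0079 and adjusted p = 0.021 for both). Ppara over Ppard averaged -0.58 in GDM and -1.77 in CTR libraries (exact permutation p = 0.032, adjusted p = 0.042), a difference of 1.19. Without GDM replicate 1, 4 or 5 or CTR replicate 5 the adjusted p was 0.051 to 0.053, with differences of 1.21, 1.18, 1.07 and 0.89. The other 2 pairs did not pass. Ppargc1a over Ppargc1b averaged -0.40 in GDM and -0.41 in CTR libraries (exact permutation p = 0.97), and Rxra over Rxrg averaged -0.25 in GDM and -0.40 in CTR libraries (exact permutation p = 0.45). Without CTR replicate 2 the Rxra over Rxrg difference was 0.31 and passed (exact permutation, adjusted p = 0.032).

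As shares of the summed family FPKM, Pprc1 made up 66.4 ± 4.71% of the PGC1 family in GDM and 44.4 ± 10.1% in CTR libraries (SD, n = 5 each). Ppargc1a made up 14.6 ± 3.82% in GDM and 24.2 ± 6.47% in CTR libraries. The PGC1 sum was 12.3 ± 0.832 FPKM in GDM and 8.06 ± 0.763 FPKM in CTR libraries. Pparg was 28.4 to 37.9% of the PPAR sum in GDM and 58.2 to 79.7% in CTR libraries, and Ppara 24.6 to 34.6% in GDM and 3.59 to 16.6% in CTR libraries. Esrra held 86.9 ± 1.81% of the summed Esrra and Esrrg FPKM in GDM and 91.8 ± 2.54% in CTR libraries, while that sum was 6.75 ± 1.21 FPKM in GDM and 13.2 ± 1.39 FPKM in CTR muscle.

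**Figure D3:**
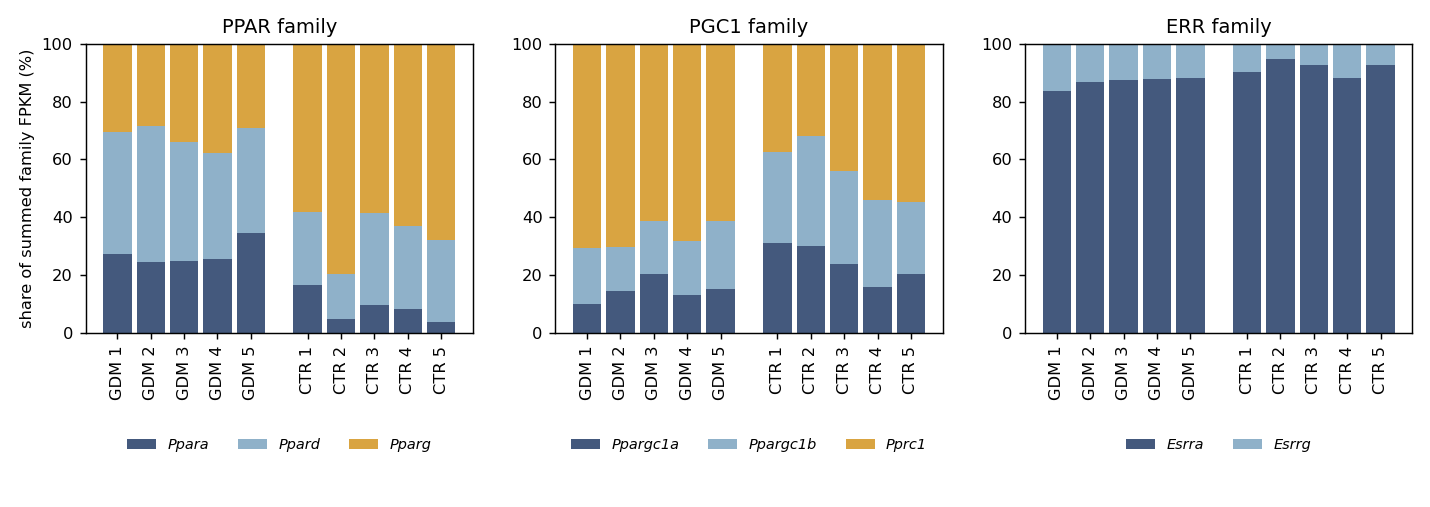
Share of each member in the summed FPKM of its family (vertical axis, 0 to 100%), with 1 bar for each of the 5 GDM libraries, left, and the 5 CTR libraries, right, in the PPAR, PGC1 and ERR families. Pprc1 made up 61.3 to 70.9% of the PGC1 sum in GDM and 31.8 to 54.8% in CTR libraries, and the Pparg share was the largest of the 3 PPARs in every CTR library.

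Most listed targets of these regulators were lower in GDM muscle. The lists were chosen with earlier results of these data known, and that of PPAR targets holds Cpt1b and Cd36. Their counts are therefore a description and not a test of the regulators. Of 25 PPAR targets of lipid use 23 were lower (10.9% of all tested genes were), none was higher (35.1%) and 2 did not pass, with a median log2 fold change of -1.40, against 0.15 for all tested genes. After scaling 24 were lower, where 18.9% of all tested genes were. Ucp3, a mitochondrial carrier induced by fatty acids, averaged 1.95 ± 0.372 FPKM in GDM and 20.5 ± 3.41 FPKM in CTR muscle (SD, n = 5 each), a log2 fold change of -2.86 (limma adjusted p = 1.2e-06). Plin5, a lipid droplet protein of oxidative tissue, averaged 2.32 ± 0.414 FPKM in GDM and 19.6 ± 3.77 FPKM in CTR muscle, and Mlycd, a decarboxylase that relieves the block on fatty acid import, averaged 8.26 ± 0.821 FPKM in GDM and 33.4 ± 3.63 FPKM in CTR muscle. Their log2 fold changes were -2.62 and -1.89. The list holds genes also used by fat cells, and without CTR replicate 2 it had 24 lower.

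Of 18 targets of ERR and PGC1 in oxidative metabolism, also listed with earlier results known, 17 were lower (10.9% of all tested genes were). The other 1 did not pass, the median was -0.61, and without CTR replicate 2 the count was also 17. The muscle fibre markers were lower in the same libraries by a similar amount, with 5 of 8 lower and a median of -0.52, and -0.70 after scaling, where the median of these targets was -0.79. The part of muscle fibre content in the target list was not tested. Uqcrc2, a core subunit of respiratory complex III, averaged 107 ± 6.14 FPKM in GDM and 176 ± 10.3 FPKM in CTR muscle (SD, n = 5 each), and Uqcrc1, of the same complex, lay between 61.2 and 71.9 FPKM in GDM and between 95.1 and 104 FPKM in CTR libraries. Ndufa9, a subunit of complex I, averaged 48.1 ± 3.63 FPKM in GDM and 82.9 ± 6.81 FPKM in CTR muscle. Their log2 fold changes were -0.71, -0.58 and -0.77. The exception was Perm1, a muscle partner of PGC1 and ERR that was named after its values were seen, with 13.9 FPKM on average in GDM and 12.2 FPKM in CTR muscle (limma adjusted p = 0.23).

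Of 18 coactivators, corepressors and enzymes that modify PGC1, 6 were higher, close to the share of all tested genes, none was lower and 12 did not pass, with a median of 0.20. After scaling none was higher and 1 was lower. Sirt1, a deacetylase that activates PGC1A, averaged 3.77 ± 0.384 FPKM in GDM and 2.79 ± 0.115 FPKM in CTR muscle (SD, n = 5 each), with a log2 fold change of 0.33 (limma adjusted p = 0.003) and 0.19 after scaling (adjusted p = 0.051). Kat2a, the acetyltransferase with the opposite action, had 0.42 (adjusted p = 0.0057) and 0.25 after scaling (adjusted p = 0.056). Mybbp1a, a repressor that binds PGC1A, had 0.33 (adjusted p = 0.014) and 0.16 after scaling (adjusted p = 0.21).

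Of 14 factors upstream of Ppargc1a 13 were tested, of which 2 were higher, a smaller share than the 35.1% of all tested genes, and 11 did not pass, with a median of 0.05. Prkaa1, a catalytic subunit of the energy sensor AMPK, had a log2 fold change of 0.25 (limma adjusted p = 0.0025), and Crtc1, a coactivator of CREB, had 0.27 (adjusted p = 0.013). Neither passed after scaling (adjusted p = 0.14 for both), where 2 other factors of the list were lower. Of 8 genes of the NRF and TFAM programme, which serves transcription of mitochondrial DNA, 2 were higher, 1 was lower and 5 did not pass, shares near or below those of all tested genes (35.1% higher and 10.9% lower). Yy1, a DNA-binding partner of PGC1A, had 0.46 (adjusted p = 0.00014), Nrf1 had 0.29 (adjusted p = 0.0054) but passed the filter only through the GDM group, with 1 CTR library at or above 1 FPKM, and Tfb2m, a mitochondrial transcription factor, had -0.36 (adjusted p = 0.02). After scaling 2 genes of this programme were higher and 2 lower.

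Of 10 other receptors that pair with RXR 7 were tested, of which 4 were higher (35.1% of all tested genes were) and 3 did not pass, with a median of 0.23. After scaling 2 were higher, near the 19.7% of all tested genes, and 1 was lower. The retinoic acid receptors Rarg and Rara had log2 fold changes of 0.74 and 0.44 (limma adjusted p = 0.0018 and 7.1e-04), and Nr4a1, an early response receptor, had 0.51 (adjusted p = 0.011), which was 0.35 after scaling (adjusted p = 0.071). Connective tissue and cartilage markers were also higher, with 3 of 4 fibroblast genes (sum 1350 to 1770 FPKM in GDM and 668 to 962 FPKM in CTR libraries) and 3 of 3 chondrocyte genes (sum 13.7 to 26.2 FPKM in GDM and 4.28 to 9.57 FPKM in CTR libraries) passing, of which Sox9 passed the filter only through the GDM group. Their part in these results, and in that for Pprc1, was not tested. No macrophage gene of 4 and no erythroid gene of 5 passed, and 4 of 6 endothelial genes were lower (10.9% of all tested genes were). After scaling 2 macrophage and 5 endothelial genes were lower (18.9% of all tested genes were). Then 2 fibroblast and 3 chondrocyte genes were higher (19.7% of all tested genes were), and no erythroid gene passed.

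**Figure D4:**
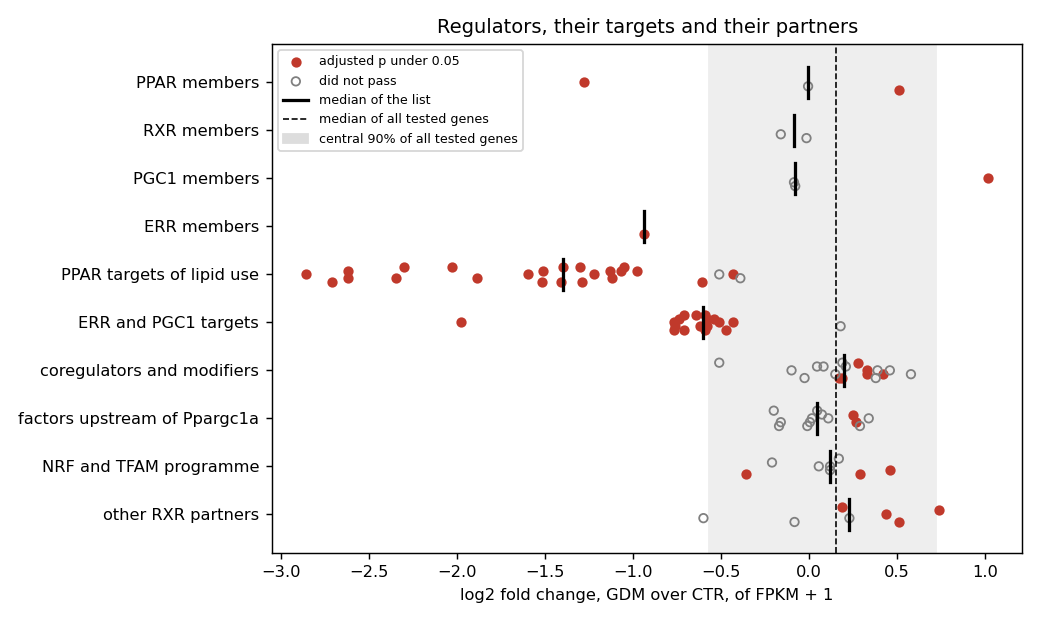
Log2 fold change of FPKM + 1, GDM over CTR (horizontal axis), of every tested member and list gene, with 1 line for each family or list. Filled red points passed an adjusted p of 0.05, open points did not, short bars mark list medians, the dashed line the median of all tested genes and the grey band the central 90% of them (-0.57 to 0.72). The target lists lie to the left, with medians of -1.40 and -0.61, while the coregulators and upstream factors lie around 0.

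Cpt1b, the carnitine transferase of muscle mitochondria, averaged 28.7 ± 5.7 FPKM in GDM and 71.0 ± 2.36 FPKM in CTR libraries (SD, n = 5 each), and Cd36, the fatty acid transporter, 36.8 ± 2.66 FPKM in GDM and 110 ± 29.5 FPKM in CTR libraries. Their log2 fold changes were -1.30 and -1.52 (limma adjusted p = 2.3e-05 and 3.8e-05). As the groups did not overlap in either gene, no pooled correlation was taken, and 5 libraries were too few for one in each group. Deviations of log2(FPKM + 1) from the group means were therefore correlated over the 10 libraries, with 20 relations tested by exact permutation within groups. None passed after adjustment (smallest adjusted p 0.13 by Pearson and 0.19 by Spearman), while 7 had an unadjusted p under 0.05 by Pearson and 3 by Spearman.

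Esrra had the highest r with Cpt1b, 0.76 (exact permutation p = 0.022, adjusted p = 0.13) and rho = 0.78 (exact permutation p = 0.02, adjusted p = 0.19). Without GDM replicates 5 and 1, the libraries farthest from its median, r was 0.58. The part of muscle fibre content in this relation was not tested. The smallest unadjusted p belonged to Ppara with Cpt1b, with r = 0.57 (exact permutation p = 0.011, adjusted p = 0.13), rho = 0.52 (exact permutation p = 0.1, adjusted p = 0.19) and r = 0.35 without GDM replicate 5 and CTR replicate 1. Pparg with Cpt1b had r = 0.23 (exact permutation p = 0.014, adjusted p = 0.13), rho = 0.43 (exact permutation p = 0.099, adjusted p = 0.19) and r = 0.61 without CTR replicates 2 and 3. Ppargc1b with Cpt1b had r = 0.55 (exact permutation p = 0.041, adjusted p = 0.13), rho = 0.49 (exact permutation p = 0.17, adjusted p = 0.27) and r = 0.32 without CTR replicate 5 and GDM replicate 5. For Ppargc1a, r was 0.17 with Cpt1b (exact permutation p = 0.63, adjusted p = 0.70) and 0.59 with Cd36 (exact permutation p = 0.091, adjusted p = 0.17), with rho of 0.25 (exact permutation p = 0.43, adjusted p = 0.54) and 0.61 (exact permutation p = 0.084, adjusted p = 0.19). Without CTR replicates 4 and 5 these r values were 0.14 and 0.37.

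The highest r values, those of Pparg, Ppard and Rxra with Cd36, rested on CTR replicate 2. They were 0.93, 0.90 and 0.89 over all libraries (exact permutation p = 0.049, 0.046 and 0.057, adjusted p = 0.13 for each) and 0.30, 0.30 and 0.21 without it. The rho values were 0.83, 0.70 and 0.59 (exact permutation p = 0.026, 0.07 and 0.13, adjusted p = 0.19, 0.19 and 0.22), and without CTR replicate 2 and the next farthest library r was 0.32, -0.04 and -0.32. Cd36 is itself abundant in fat cells, and was at 162 FPKM in that library, against 87.4 to 103 FPKM in the other 4 CTR libraries. For Pprc1 with Cd36, r was -0.72 (exact permutation p = 0.033, adjusted p = 0.13) and rho -0.64 (exact permutation p = 0.052, adjusted p = 0.19), and r was -0.44 without CTR replicate 2 and -0.60 without CTR replicates 2 and 4.

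**Figure D5:**
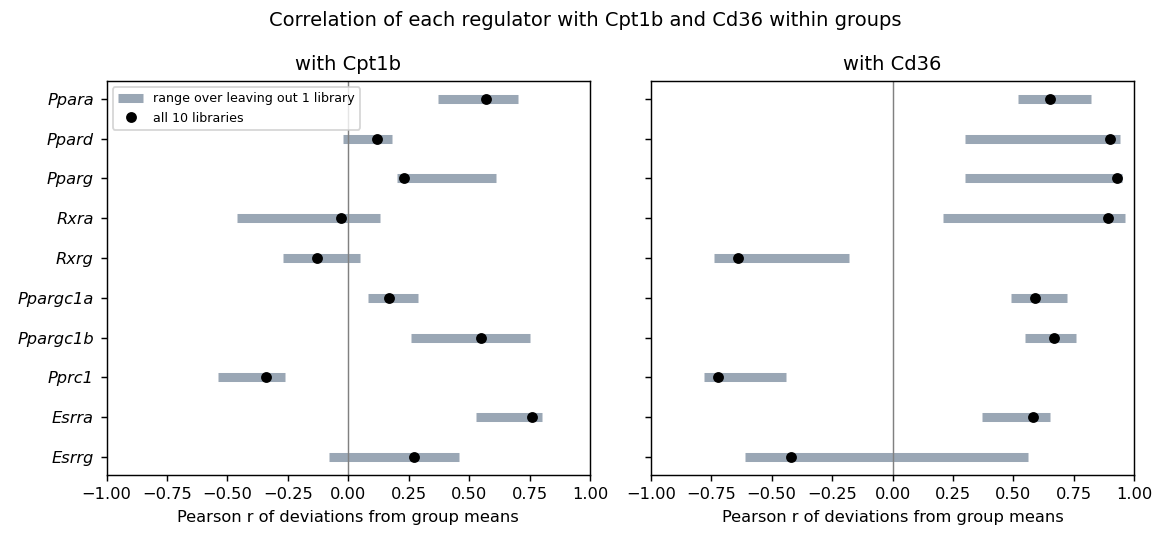
Pearson r of deviations from the group means (horizontal axis) between each regulator and Cpt1b, left, or Cd36, right, over 10 libraries. Points give r with all libraries and grey bars its range when 1 library is left out. The bar of Esrra with Cpt1b ran from 0.53 to 0.80, while those of Ppard, Pparg and Rxra with Cd36 reached down to 0.30, 0.30 and 0.21. No relation passed after adjustment.

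Among themselves the members formed few close pairs over the 10 libraries, which share their depth and tissue make-up. The r of deviations was -0.80 between Ppargc1a and Pprc1 (-0.77 without CTR replicate 2) and 0.87 between Ppara and Ppargc1b (0.84 without it). Ppard, Pparg and Rxra had r of 0.90 to 0.93 with each other, and without CTR replicate 2 these were -0.19 for Ppard with Pparg, 0.48 for Ppard with Rxra and -0.46 for Pparg with Rxra. Ppargc1a and Esrra had r = 0.48. The values that follow were picked as the highest of 13363 over only 10 libraries. How high such picked values run without any relation was not computed. Of all 13363 tested genes those most like Esrra in their deviations were Abcd3 (r = 0.931), Gk (0.914) and Cox5a (0.914), those most like Pprc1 were Rin2 (0.94), Cep131 (0.93) and Ezh2 (0.923), and those most like Ppargc1a were Tal1 (0.941), Fam122b (0.938) and Acat2 (0.93), each as a description over 10 libraries.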

How the data were processed

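RNA-seq values of foetal limb muscle were used, 5 GDM and 5 CTR libraries by their labels. As deposited, each of 55401 genes has 1 FPKM value per library. The methods give poly(A) RNA and a dUTP-marked second strand, and the submitters' processing notes name HISAT2 2.0.4 and StringTie 1.3.4d, and also edgeR and DESeq2 without a role. The lowest value, 0.0001 FPKM, stands for no signal. No scaling beyond FPKM and no use of strand in counting is stated. The fold change, p-value and q-value columns of the authors were not used.

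Genes with at least 1 FPKM in at least 5 libraries were compared with limma 3.58.1 (R 4.3.3; trend and robust options) on log2(FPKM + 1), as GDM minus CTR without covariates, and p was adjusted by Benjamini-Hochberg over all 13363 at a threshold of 0.05. Fold changes on this scale understate those of low genes. Esrrg and Esrrb have values from the fit without the filter. Ratios and correlations were computed with numpy 2.4.6, pandas 2.3.3 and scipy 1.17.1 in Python 3.11.15, and figures with matplotlib 3.10.9. Depth was estimated from the lowest values of single-transcript genes and is approximate. Coordinates are from GENCODE vM21 (GRCm38), and promoters from RefSeq.

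The members and lists were chosen with earlier results of these data known. Named were all members, Cpt1b, Cd36, Rxrb and Esrrb, up to 3 genes a list and direction with the smallest adjusted p (at most 4 a list), and the 3 genes most like Ppargc1a, Esrra and Pprc1. Alternatives changed the pseudocount to 0.1 or the filter to none or 1 FPKM in every library, or used a replicate block, median ratio scaling, quantile normalization or all libraries but 1. List counts without CTR replicate 2 were added after seeing the data. Both tests were tested on simulated data.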

Additional observations from a re-analysis of the deposited data

Results flagged for a closer look

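Single libraries stood apart from the other 4 of their group, by the gap to the nearest value over the range of the group, in 7 of 62 tests of groups over 31 genes. Chance gives about 1 in 20. Of these, 5 were CTR replicate 2, the library with the highest fat cell sum, which had 17.8 FPKM of Pparg (others 3.63 to 4.04), 3.49 FPKM of Ppard (others 1.53 to 1.99), 16.3 FPKM of Rxra (others 11.5 to 12.6), 162 FPKM of Cd36 (others 87.4 to 103) and 9.96 FPKM of Yy1 (others 8.87 to 9.02). GDM replicate 4 had 9.46 FPKM of Rxrb, against 7.29 to 7.77 FPKM in the other GDM libraries. GDM replicate 1 had 17.3 FPKM of Rarg, against 10.6 to 12.2 FPKM in the other GDM libraries.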

How the results depend on the processing

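The higher call of Pprc1 and the lower call of Esrra held under all 16 alternatives, with log2 fold changes of 0.873 to 1.201 and -1.097 to -0.86. Of the members, 1 was higher (Pprc1) without the filter, with 1 FPKM in every library, with median ratio scaling and with quantile normalization, against 2 as reported, and 1 to 2 when 1 library was left out. Without the filter 1 member was lower. Over all genes, median ratio scaling gave 2630 higher and 2529 lower and quantile normalization 2881 and 2343, against 4691 and 1451. The share of calls that were higher was 51.0 and 55.1%, against 76.4%. Median ratio scaling divided GDM libraries by 1.041 to 1.097 and CTR libraries by 0.9216 to 0.9515. This moved the median log2 fold change from 0.1536 to 0.006, so more even calls follow by construction. Why the libraries differ in these factors was not tested. The same replicate numbers did not pair the samples (correlations of -0.0723 to -0.0191, and 0 libraries correlated best with their own number). With the replicate block 1 member was higher and 2 were lower, and 4171 genes were higher and 1269 lower. Directions that turned all belonged to values near 0. Ppard was 0.008 with a pseudocount of 0.1 and -0.069 to 0.139 when 1 library was left out, Rxra ran between -0.052 and 0.064 when 1 library was left out and was -0.182 and -0.161 under median ratio and quantile scaling, Rxrb was -0.054 and -0.041 under the same scalings, and Ppargc1a over Ppargc1b ran between -0.137 and 0.138. The members below 3 FPKM had the fewest fragments per kilobase, and of these Ppara lost its call under 9 of 15 alternatives. Over all 15 its limma adjusted p ran from 0.016 to 0.16.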
